A study of Mus musculus with 8 samples.

Results

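Homeobox genes outside the Hox clusters encode transcription factors that set up organs and cell types in the embryo. The genes described here are the autosomal protein-coding genes of the GENCODE M1 annotation (mouse build mm9) whose symbol is Lhx, Nkx, Pitx, Dlx, Irx, Otx, Msx, Emx, Meis or Pbx followed by a digit, together with the sine oculis homeobox genes named in the same way (such as Six2). The rule took 57 genes of 11 families out of 21410 autosomal protein-coding genes, and 5 further symbols that it matched, Dlx1as, Dlx6os1, Emx2os, Nkx2-2as and Six3os1, are not protein-coding genes. DNA double-strand breaks (DSBs) were mapped by DSB-seq in established mouse embryonic stem (ES) cells that lack the chromatin remodeler Chd1 (Chd1Δ/Δ, here Chd1 KO) and in control ES cells (Chd1fl/Δ), which carry 1 deleted and 1 floxed Chd1 allele. DSB-seq labels DNA ends at breaks with terminal transferase, captures the labelled fragments and sequences them. Each genotype had 2 replicates, which the authors combined before they called peaks, so that 1 peak list per genotype was analyzed and no value below has a replicate error. The Chd1 KO list holds 5671 peaks and the control list 54. A gene was counted when the summit of a peak, its highest point, lay within 1 kb of a transcription start site (TSS) of one of its protein-coding transcripts.

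The homeodomain is a DNA-binding fold that all these proteins share, and their genes fall into classes by the sequence of the homeodomain and by the domains beside it. Lhx proteins also carry LIM domains, through which they bind cofactors. Nkx, Dlx, Msx and Emx belong to the NK-like branch of the Antennapedia class, Pitx and Otx to the paired-like genes, and Irx, Meis and Pbx to the TALE class, whose homeodomain has a longer loop. Most of these genes are silent or low in ES cells and are switched on in particular lineages, and many have promoters rich in CpG dinucleotides. Expression and RNA polymerase II were not analyzed here.

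Of the 57 genes, 10 (17.5%, Wilson 95% interval 9.82% to 29.4%) had a Chd1 KO summit within 1 kb of a TSS, beside 16.4% of all autosomal protein-coding genes (3508 of 21410). The homeobox genes with a summit were Lhx2, Lhx6, Lhx8, Nkx1-1, Nkx2-4, Six2, Pitx3, Dlx4, Pbx2 and Pbx3. Their share thus lay near that of all genes. The intervals of shares given throughout are Wilson 95% intervals and cover counting error only. In control cells, 0 of the 57 genes had a summit in the window, and the same held for all autosomal protein-coding genes, of which 0% had one. The control summit nearest to any of these TSSs lay 1299 kb away, beside Pbx4, and 8 of the genes lie on chromosomes without a control peak. A gene without a summit is one where no signal passed the cutoff of the peak caller, and weaker DSB-seq signal was not analyzed here.

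The 10 genes carried 12 summits. The sequences below are the longest stretches made only of G and C inside these peaks, and 11 of the 12 peaks hold one that is 12 bp or longer. No share over all Chd1 KO peaks is given beside that count. Of the 47 homeobox genes without a summit, 44 also had a stretch of 12 bp or more within 1 kb of the outermost TSS. The stretches inside the peaks are shown 5′ to 3′ on the strand of the gene, from mm9, with the stretch in capitals and its flanks in lower case. Flanks are short where the stretch lies in or beside an untranslated exon.
Lhx2 (chr2:38194844-38194873, plus strand): caGCCCGGCCGCCCCCGCCCGCGCCCGCag
Pitx3 (chr19:46222777-46222806, minus strand): ccagagcaGGGGGGCGGCCCCCaccccgca
Lhx8 (chr3:153991633-153991698, minus strand): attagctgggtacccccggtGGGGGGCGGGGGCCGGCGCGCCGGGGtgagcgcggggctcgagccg
Lhx6 (chr2:35960687-35960716, minus strand): gcatgagaGCGCCGCCCCGGCGCtgcccga
Nkx2-4 (chr2:146911102-146911131, minus strand): gtCCCGCCCGCGCCCGCCCCGGGCCCCCCt
Six2 (chr17:86087753-86087812, minus strand): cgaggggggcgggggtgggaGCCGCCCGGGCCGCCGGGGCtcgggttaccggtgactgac
Pbx3 (chr2:34227807-34227871, minus strand): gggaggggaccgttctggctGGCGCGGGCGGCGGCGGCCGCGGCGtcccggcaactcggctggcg
Nkx1-1 (chr5:33776480-33776549, minus strand): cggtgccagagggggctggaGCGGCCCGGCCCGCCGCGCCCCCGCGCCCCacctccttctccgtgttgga
Nkx1-1, second peak (chr5:33773592-33773659, minus strand): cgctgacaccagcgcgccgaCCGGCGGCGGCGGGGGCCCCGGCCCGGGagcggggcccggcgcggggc
Pbx2 (chr17:34729281-34729310, plus strand): tttctCCGCCGCCGGGGGCCGGGGtctcct
Dlx4 (chr11:95007505-95007534, minus strand): tctgggcgctCGGCGGGGGCGtgcgcgcca
Lhx2, second peak (chr2:38207126-38207155, plus strand): gcccgcaGGCGCCCGCGGCCCGGagcccag

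The stretches in capitals differ in kind from gene to gene. That of the first Lhx2 peak is mostly C on the strand of the gene, with 18 C and 8 G, and that of Nkx2-4 has 20 C and 7 G. The stretch of Lhx8 has the opposite bias, with 19 G and 7 C. In Pbx3 it is a run of GGC triplets with 8 CpG dinucleotides in 25 bp. Dlx4 is the exception among these peaks, since its longest stretch has 11 bp. Over the 12 peaks the median GC content was 75.1%, from 67.7% in Six2 to 82.0% in Pbx3. No median over all Chd1 KO peaks is given beside it.

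**Figure D1:**
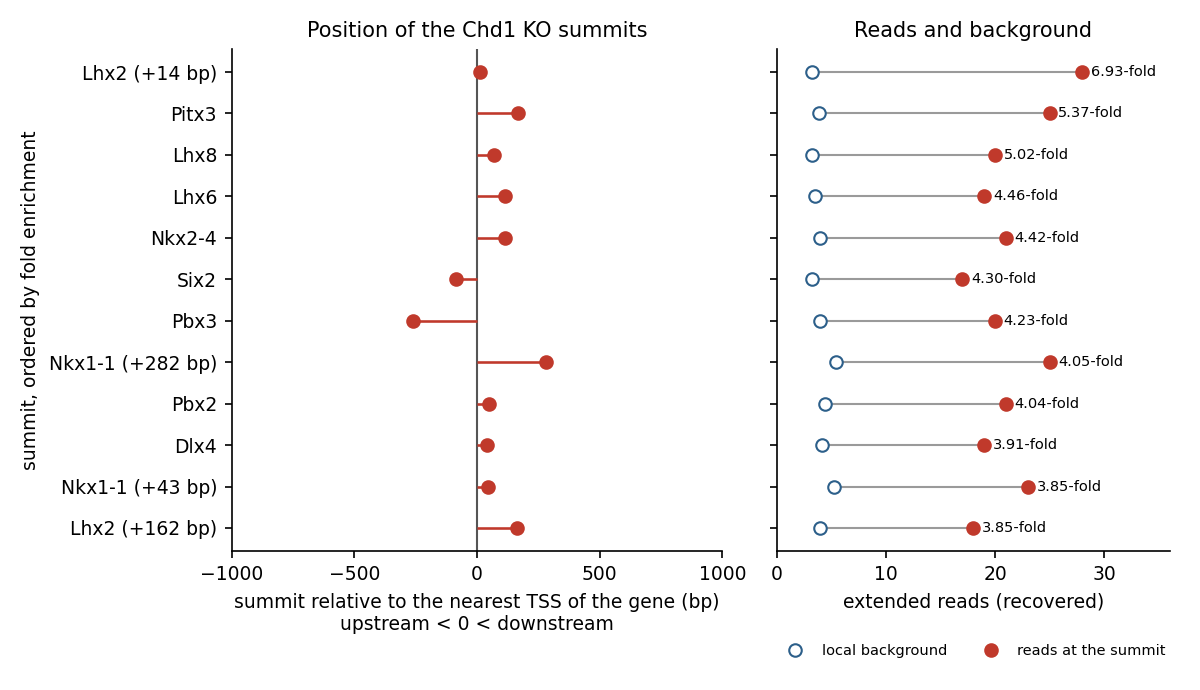
The 12 Chd1 KO summits within 1 kb of a TSS of the homeobox genes, ordered by the fold enrichment of the authors. The left panel gives the position relative to the nearest TSS of the gene in bp, the right panel the extended reads at the summit (filled) and the local background (open). All 12 lie within 300 bp of the TSS, with 17 to 28 reads over a background of 3.18 to 5.42.

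All 12 summits lay within 300 bp of the TSS, and 10 of the 12 (83.3%, interval 55.2% to 95.3%) were downstream of it. Among the 3520 autosomal summits within 1 kb of a protein-coding TSS, 65.1% were downstream and 75.3% lay within 300 bp. The median position was 59 bp downstream for the homeobox genes and 75 bp downstream for all. By the annotation, 6 of the summits were in untranslated exons, 4 in coding exons, 1 in an intron and 1 upstream of the gene. For none of the 12 was a TSS of another gene nearer. At the summit, reads extended to fragment length numbered 20.5 in the median, beside 21 for all peaks near a TSS. Their median fold enrichment, as the authors computed it with MACS2, was 4.27, beside 4.53 for all peaks near a TSS. Fold enrichment here is the ratio of reads to local background after 1 is added to each.

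Among the LIM homeobox genes, 3 of 8 (37.5%, interval 13.7% to 69.4%) had a summit, and that interval holds the 16.4% of all genes. Lhx2, which acts in forebrain, eye and hair follicle, had the highest peak of the 57 genes. Its summit lay 14 bp downstream of the outermost TSS, with 28 reads over a background of 3.18, 6.93-fold enrichment and a −log10 q-value of 12.9 (the adjusted p-value of the peak caller). This peak was also the widest of the 12, with 787 bp, and it ranked 171 of the 5671 Chd1 KO peaks by fold enrichment. The second Lhx2 summit belonged to another promoter of the same gene. It lay 162 bp downstream of a TSS that is 12027 bp from the first, with 18 reads and a fold enrichment of 3.85. Promoter GC content, taken within 1 kb of the outermost TSS, was 59.8% for Lhx2, and its gene length, the mean over its protein-coding transcripts, was 12.4 kb.

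Lhx6 and Lhx8 specify neurons of the ventral forebrain, Lhx6 the cortical interneurons and Lhx8 the cholinergic neurons. The Lhx6 summit lay 115 bp downstream of a TSS, in a coding exon, with 19 reads, 4.46-fold enrichment and a −log10 q-value of 5.23. Lhx6 has a promoter GC content of 57.7% and a length of 22.9 kb. The Lhx8 summit lay 68 bp downstream of a TSS, with 20 reads, 5.02-fold enrichment and a −log10 q-value of 6.49. Lhx8 is 10.9 kb long and has the lowest promoter GC content of the genes with a summit, 48.0%. That value describes the outermost TSS, which is 2017 bp from the TSS with the summit. Around the TSS with the summit the GC content was 58.5%, close to that of Lhx2 and Lhx6. The 5 LIM genes without a summit were Lhx1, Lhx3, Lhx4, Lhx5 and Lhx9.

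The NK-like genes are the largest group, and 3 of 25 (interval 4.17% to 30.0%) had a summit. As for the LIM genes, that interval holds the 16.4% of all genes. Nkx2-4 is a close relative of the thyroid and lung gene Nkx2-1 and is expressed in the hypothalamus. Its summit lay 114 bp downstream of its only TSS, in a coding exon, with 21 reads, 4.42-fold enrichment and a −log10 q-value of 5.68. Nkx2-4 is 2.13 kb long and has a promoter GC content of 62.4%. Nkx1-1 is another short gene, with a mean transcript length of 1.71 kb, a gene span of 3.24 kb and a promoter GC content of 64.5%. It had a summit near each of 2 annotated TSSs, 2781 bp apart, the second of them toward the 3′ end of the gene. The summits lay 43 bp and 282 bp downstream, both in coding exons, with 23 and 25 reads and fold enrichments of 3.85 and 4.05. Dlx4 lies beside Dlx3, which acts in placenta and skin. Its summit lay 39 bp downstream of the TSS, with 19 reads, 3.91-fold enrichment and a −log10 q-value of 4.21, in a gene of 5.81 kb with a promoter GC content of 55.4%. No summit lay near the TSSs of Nkx2-1, of the heart gene Nkx2-5, of the neural tube and pancreas genes Nkx2-2, Nkx6-1 and Nkx6-2, or of the Msx and Emx genes of limb and cortex.

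Among the sine oculis genes, 1 of 6 (interval 3.01% to 56.4%) had a summit. Of the paired-like genes it was 1 of 5 (interval 3.62% to 62.4%). Both intervals hold the 16.4% of all genes. Six2 keeps the progenitors of the kidney nephron in an undifferentiated state. Its summit was 1 of 2 upstream of a TSS, at -84 bp, with 17 reads, 4.30-fold enrichment and a −log10 q-value of 4.44. Six2 is 3.98 kb long and has a promoter GC content of 67.4%. Pitx3 acts in dopaminergic neurons of the midbrain and in the lens. Its summit lay 169 bp downstream of the TSS in an untranslated exon, with 25 reads, 5.37-fold enrichment and a −log10 q-value of 8.71. Pitx3 is 8.32 kb long and has a promoter GC content of 59.6%. Otx2, which is active in ES cells and in the epiblast as well as in the forebrain, had no summit in the window. Its promoter GC content, 46.1%, is the lowest of the 57 genes, and the nearest Chd1 KO summit lay 215 kb away.

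Of the 13 TALE genes, 2 (interval 4.33% to 42.2%) had a summit, and that interval holds the 16.4% of all genes. Both genes with a summit belong to the Pbx family, whose proteins pair with Hox proteins on DNA. Pbx3 stood apart from the other genes in both GC content and length, with the highest promoter GC content of the 57, 72.5%, and a length of 147 kb. Its summit lay in an intron of the annotated gene and 262 bp upstream of the nearest protein-coding TSS, with 20 reads and a fold enrichment of 4.23. Pbx2 is short, at 3.82 kb, and its summit lay 50 bp downstream of a TSS that is 997 bp from the outermost one. It had 21 reads and a fold enrichment of 4.04, at a promoter GC content of 59.7% around the outermost TSS. Around the TSS with the summit the GC content was 63.6%. Meis1 and Meis2 are of similar length, 136 and 126 kb, and had no summit. Their promoter GC content was 50.1% and 51.6%.

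The Iroquois genes (Irx), which pattern the neural plate, heart and limb, had a summit at 0 of 6 genes (interval 0% to 39.0%), and that interval holds the 16.4% of all genes. Their median promoter GC content, 65.4%, was the highest of the 11 families. The 5 genes without a summit that have the highest promoter GC content were Irx2, Irx1, Irx5, Six5 and Irx3. The sequences below are the longest stretches of G and C within 1 kb of their outermost TSSs, shown in the same way, to be read beside those under the peaks.
Irx2 (chr13:72766481-72766510, plus strand): tgaCGCGGGCCCCGCGCCCCGCGCCCacca
Irx1 (chr13:72101047-72101076, minus strand): gaGCGGCCCCCGCCCCCGGGCCGGCCGGag
Irx5 (chr8:94882040-94882069, plus strand): gttGGCCGCCGCGGCGCGGCGCGCCCCatg
Six5 (chr7:19680091-19680151, plus strand): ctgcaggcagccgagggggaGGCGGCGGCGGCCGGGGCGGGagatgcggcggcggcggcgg
Irx3 (chr8:94325283-94325312, minus strand): cgctGCCGCCGCCGCCGCCCGCCGCGGagc

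Irx2 has a promoter GC content of 67.0% and a length of 3.26 kb, and its nearest Chd1 KO summit was 282 kb away. For Irx1 these values were 66.1%, 5.49 kb and 383 kb. For Irx5 they were 66.1%, 3.66 kb and 90.4 kb. These stretches, with that of Six5, are 21 to 26 bp long, each the longest within 1 kb of the outermost TSS. In the same windows the longest stretches of the 10 genes with a summit had 11 to 30 bp. Those under the 12 peaks, which are narrower than these windows, also had 11 to 30 bp. Six5, which lies next to the myotonic dystrophy gene Dmpk, has a promoter GC content of 65.3% and a length of 3.80 kb, and its nearest summit was 18.0 kb away. Irx3 has 64.8% and 3.13 kb, with the nearest summit 266 kb away. Irx4 and Irx6, with 61.1% and 61.9%, complete the family.

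**Figure D2:**
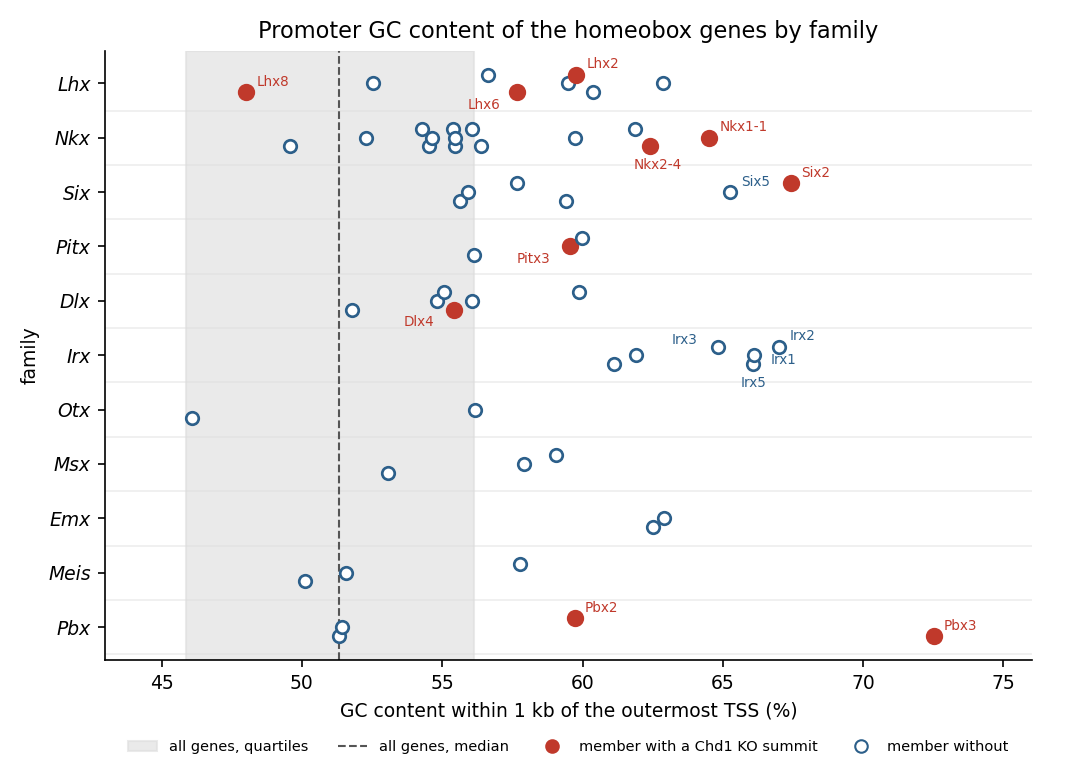
Promoter GC content (percent within 1 kb of the outermost TSS) of each of the 57 homeobox genes by family, with genes that have a Chd1 KO summit filled. The shaded band and the dashed line give the quartiles (45.9% and 56.1%) and the median (51.3%) of all autosomal protein-coding genes. The 6 Irx genes lie between 61.1% and 67.0% without a summit.

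Promoters of the homeobox genes were rich in G and C. Their median GC content was 57.7% (quartiles 54.8% and 61.1%), beside 51.3% (quartiles 45.9% and 56.1%) for all genes. The 10 genes with a summit had a median of 59.7% and the 47 without one 56.2%. Over all genes these medians were 58.7% and 50.0%, so homeobox genes without a summit lay closer to the GC content of genes with one.

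The shares with a summit are given by class of promoter GC content, beside those of all genes and without a test of the difference. From 55% to 60% GC, 5 of 26 homeobox genes (19.2%, interval 8.51% to 37.9%) had a summit, beside 29.5% of all genes, which lies inside that interval. From 60% to 65% it was 2 of 10 (20.0%, interval 5.67% to 51.0%), beside 55.7%, which lies above that interval. At 65% and over it was 2 of 6 (33.3%, interval 9.68% to 70.0%), beside 76.7%, again above the interval. The share of all genes thus rose by class, while that of the homeobox genes stayed within wide intervals that overlap each other. Below 55% GC, 1 gene had a summit, Lhx8. For all promoters with at least 60% GC, 4 of 16 homeobox genes (25.0%, interval 10.2% to 49.5%) had a summit, beside 1401 of 2321 genes (60.4%, interval 58.4% to 62.3%). Adding up, for each homeobox gene, the share of all genes of its GC class gives 19.3 genes, and 10 were counted. With GC content within 500 bp of the TSS, that sum was 14.4 genes. From 60% to 65% in that window, 2 of 19 homeobox genes (10.5%, interval 2.94% to 31.4%) had a summit, beside 25.8% of all genes. At 65% and over, 5 of 12 homeobox genes (41.7%, interval 19.3% to 68.0%) had a summit, namely Lhx2, Lhx6, Nkx1-1, Pbx3 and Six2, beside 62.5% of all genes. In both of these classes the share of all genes lies inside the interval of the homeobox genes.

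**Figure D3:**
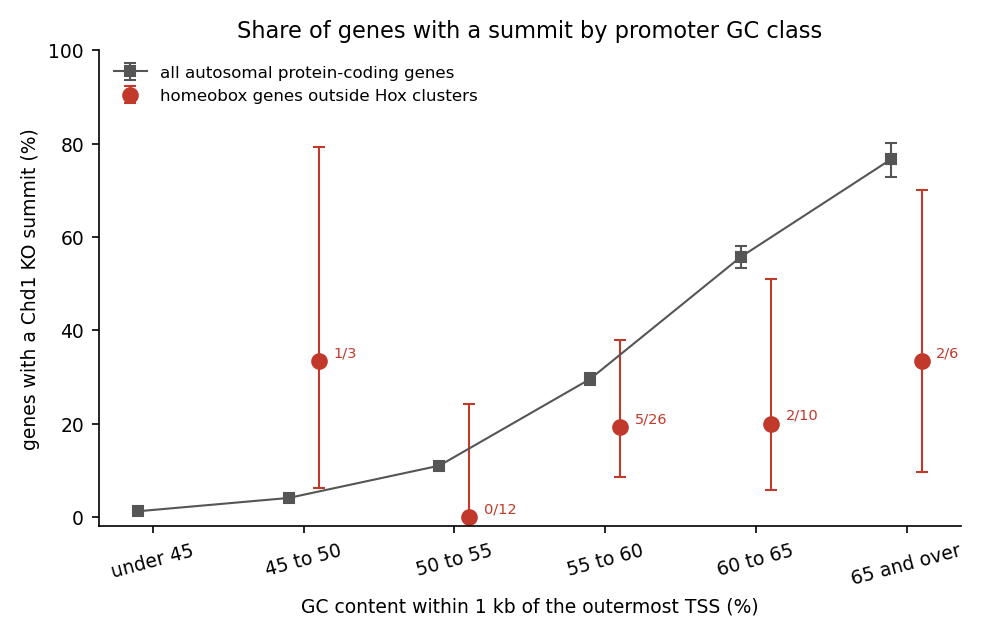
Percent of genes with a Chd1 KO summit within 1 kb of a TSS, by class of promoter GC content, for all autosomal protein-coding genes (squares) and for the homeobox genes (circles, with counts). Bars are Wilson 95% intervals. The shares of all genes rise from 1.20% to 76.7%, and the homeobox genes lie lower in each class from 50% GC upward. In the classes from 50% to 60% GC the share of all genes lies inside the interval of the homeobox genes.

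The homeobox genes are short. Their median length was 5.49 kb (quartiles 3.80 and 9.37 kb), beside 13.3 kb (quartiles 4.20 and 35.4 kb) for all genes, and 44 of the 57 (77.2%) were under 10 kb, beside 43.1% of all genes. Those with a summit had a median of 7.06 kb and those without one 5.21 kb. Over all genes the share with a summit went with length, from 5.82% under 5 kb to 32.6% at 50 kb and over. Under 5 kb, 4 of 26 homeobox genes (15.4%, interval 6.15% to 33.5%) had a summit, and the 5.82% of all genes lies below that interval. These 4 genes are Nkx1-1, Nkx2-4, Pbx2 and Six2. Among genes with both at least 60% GC and under 10 kb, 3 of 13 homeobox genes (23.1%, interval 8.18% to 50.3%) and 46.3% (interval 42.4% to 50.1%) of 642 genes in all had a summit, and these intervals overlap. The sum of the shares of all genes was 6.15 genes with classes of length, below the 10 counted, and 14.5 genes with classes of GC content and length together, above it.

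**Figure D4:**
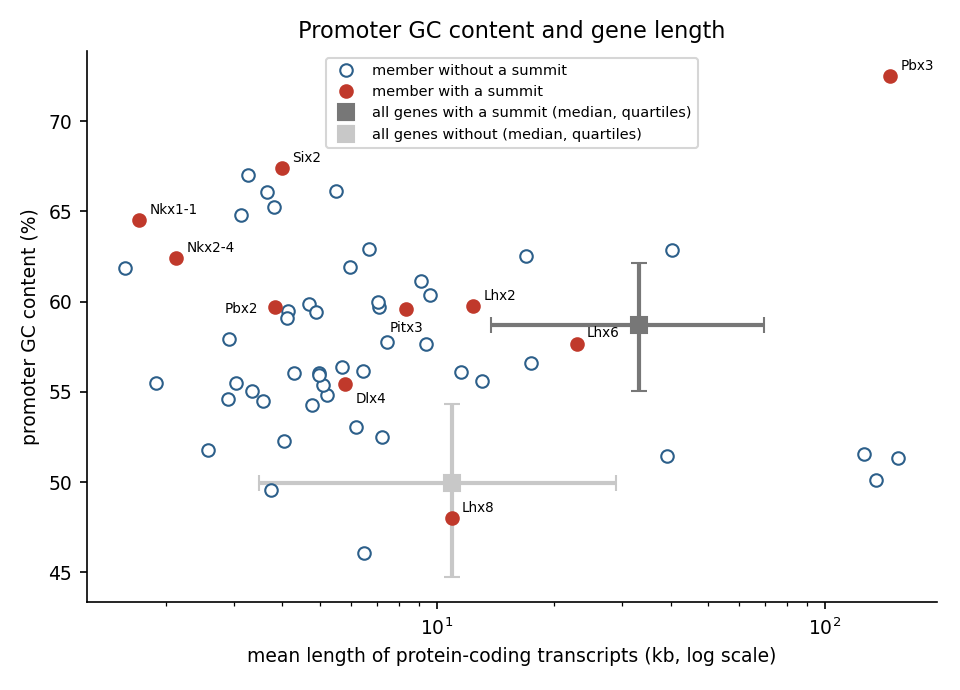
Promoter GC content (percent) against gene length (mean over protein-coding transcripts, kb, log scale) for each homeobox gene, filled where it has a Chd1 KO summit. Squares with bars give the median and quartiles of all autosomal protein-coding genes with a summit (58.7% and 33.1 kb) and without one (50.0% and 10.9 kb). Most homeobox genes lie left of both squares.

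The sequence around the TSSs was compared further in 3 measures. Stretches of G and C that span 12 bp or more were found within 1 kb of the outermost TSS in 53 of 57 homeobox genes (93.0%, interval 83.3% to 97.2%), beside 53.9% of all genes. Stretches of at least 20 bp were present in 7 of the 10 genes with a summit and in 14 of the 47 without one, beside 58.9% and 8.38% over all genes. A G-quadruplex motif, 4 tracts of at least 3 G on either strand with spacers of 1 to 7 bases, was found in 49 of the 57 windows, beside 55.4% of all. It was found in 9 of 10 genes with a summit and in 40 of 47 without one, beside 86.4% and 49.4% over all genes.

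The third measure was the ratio of observed to expected CpG dinucleotides, with a limit of 0.8 that was chosen after the values were seen. Of the 5 with at least 60% GC and a CpG ratio of at least 0.8, 4 had a summit, Nkx1-1, Nkx2-4, Pbx3 and Six2, and Nkx6-2 had none. Of the 11 with at least 60% GC and a lower CpG ratio, 0 had one (interval 0% to 25.9%), and these are the 6 Irx genes, Emx1, Emx2, Lhx4, Lhx5 and Six5. Among all genes of at least 60% GC, the shares were 74.6% of 910 and 51.2% of 1411. Many homeobox genes lie just under the limit, such as Irx5 with 0.796 and Emx2 and Six5 with 0.784. With a limit of 0.75, 4 of 10 above it (interval 16.8% to 68.7%) had a summit. Below it 0 of 6 (interval 0% to 39.0%) had one. For all genes with at least 60% GC, that limit gave shares of 71.3% of 1229 and 48.1% of 1092, each above the interval. Forkhead genes of at least 60% GC differed little by this ratio, with 6 of 10 at 0.8 and over and 7 of 11 below, as did Hox genes, with 4 of 5 and 3 of 4. In the other homeobox families it was 7 of 8 and 9 of 15. At lower GC content, genes with a summit also had lower CpG ratios around the outermost TSS, such as 0.366 for Pbx2 and 0.579 for Dlx4.

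Many of these genes lie near one another, mostly beside genes of the same family. With TSSs less than 1000 kb apart, 25 of the genes form 11 clusters, and 3 of the 25 had a summit, beside 7 of the 32 other genes. The rule used distance only, so these clusters include the pair of Nkx6-2 and Msx3, of different families and 466 kb apart. The 16.4% of all genes lies between these shares, and the difference between them was not tested. No cluster held more than 1 gene with a summit, but 3 such genes in 11 clusters are too few to show a pattern. Dlx4 had one, while Dlx3, 26.2 kb away with nearly the same promoter GC content (54.8% and 55.4%), had none. Six2 had one and Six3, 74.6 kb away, had none, with 67.4% and 57.7% GC. Nkx2-4 had one and Nkx2-2, 101 kb away, had none, with 62.4% and 55.4% GC. Both Irx clusters and the pairs of Dlx1 with Dlx2 and Dlx5 with Dlx6 had no summit in the window.

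Other lists of developmental transcription factors were counted by the same rule. In the Hox clusters 11 of 40 genes (27.5%, interval 16.1% to 42.8%) had a summit, in the Forkhead family 21 of 40 (52.5%, interval 37.5% to 67.1%), and among the Sox, Tbx, Pax and Gata genes 10 of 44 (22.7%, interval 12.8% to 37.0%). A list of homeobox genes of other families, such as Gbx, En, Barhl and Lmx1, had 20 of 59 (33.9%, interval 23.1% to 46.6%). Restricted to at least 60% GC, the homeobox genes described here (4 of 16) and the Sox, Tbx, Pax and Gata genes (4 of 13) had the lower shares. The Hox genes (7 of 9), Forkhead genes (13 of 21) and other homeobox genes (16 of 23) had higher ones.

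**Figure D5:**
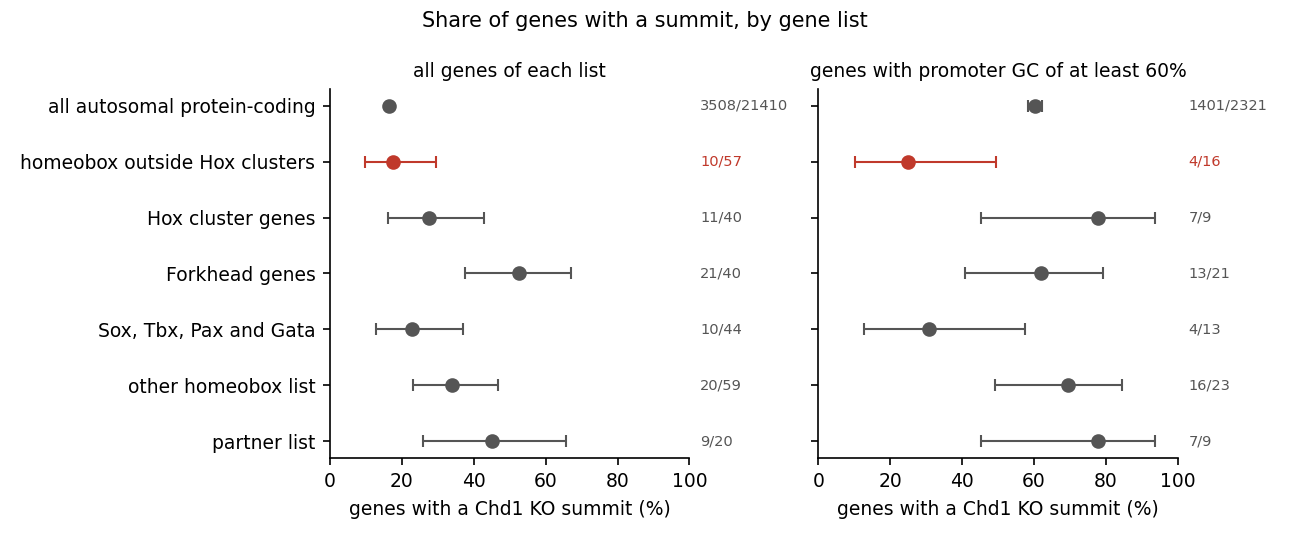
Percent of genes with a Chd1 KO summit within 1 kb of a TSS for each gene list, over all its genes (left) and over those with a promoter GC content of at least 60% (right), with Wilson 95% intervals and counts. The partner list holds the cofactor genes described below. The 57 homeobox genes described here lie at 17.5% and 25.0%, all autosomal protein-coding genes at 16.4% and 60.4%. Those of the list of other homeobox families lie at 33.9% and 69.6%.

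Proteins that work with these homeobox factors were followed in a list of 20 cofactor genes, of which 9 (45.0%, interval 25.8% to 65.8%) had a summit, beside 16.4% of all genes. Of the LIM cofactors, Ldb1, Lmo4, Ssbp2 and Ssbp4 had 1 summit, Ssbp3 had 2, and Ldb2, Lmo1, Lmo2 and Lmo3 had none. Of the Groucho corepressors, Tle1, Tle3 and Tle4 had one and Tle2 had none. The cofactors of the sine oculis proteins, Eya1, Eya2, Eya3, Eya4 and Dach1, had none. Pknox1, a partner of Pbx, had 2 summits, and Pknox2 had none. The cofactor genes are longer than the homeobox genes, with a median of 76.4 kb, and 9 of the 20 have a promoter GC content of at least 60%. Of these 9, 7 had a summit (interval 45.3% to 93.7%), and that interval holds the 60.4% of all genes with such a promoter.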

How the data were processed

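The authors mapped the reads of each genotype to mm9 with Bowtie2, removed reads with a mapping quality under 13, kept 1 read per position, combined the 2 replicates, and ran MACS2 with a fragment extension of 200 bp and a cutoff of 0.05 on the q-value. Blacklisted regions were taken out, and bedtools is also named in the submitters' processing notes. The deposited fold enrichment is a ratio within 1 library, that of reads plus 1 to local background plus 1. The deposited −log10 p-value and −log10 q-value are the authors' own, and the lowest −log10 p-value is 4.88 in Chd1 KO and 7.13 in control.

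Read and background counts are the pair of values that give the listed fold enrichment and Poisson p-value together, to within 7.25e-05 (Chd1 KO) and 1.35e-04 (control) of the deposited −log10 p-value. No Chd1 KO peak had under 13 reads. The lowest background, 3.18 and 2.95 reads, is set by the depth of the combined library, which in control was thus 0.927 of that in Chd1 KO. TSSs, transcripts and exons came from GENCODE M1, and sequence from the same build. Promoter GC content, CpG ratio, stretches of G and C and G-quadruplex motifs were taken within 1 kb of the outermost protein-coding TSS, and gene length as the mean over protein-coding transcripts. No test was made between genotypes or gene lists. Alternatives changed the window, the position of the peak, the TSSs, the cutoffs, the genes, and the definitions of GC content, length and stretch. The markers of ES cells cannot be checked in lists of DNA peaks.

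The genes and lists were chosen with earlier results of these data known. Full values are given for the 6 genes with the highest fold enrichment, the 5 without a summit of highest promoter GC content and the 3 with a summit of lowest promoter GC content. None of the 57 homeobox genes had 3 summits, a nearest summit at 1 to 2 kb, a summit at 0.8 to 1 kb or a control summit within 10 kb. Other genes named singly, the class of at least 60% GC, its split by length and CpG ratio, the classes of homeodomain and the clusters were chosen after the values were seen. Dach2, on the cofactor list, is not an autosomal gene. In the list of other homeobox genes, 56 symbols stand for 59 annotated genes, since 3 symbols are annotated at 2 entries each. Pknox1 and Pknox2 are in both lists. Analyses used Python 3.11.15, NumPy 2.4.6, pandas 2.3.3, SciPy 1.17.1, pysam 0.24.0, samtools 1.23.1 and Matplotlib 3.10.9.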

Additional observations from a re-analysis of the deposited data

How the results depend on the processing

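Under the alternatives to the window, peak position, TSSs and cutoffs, the number of homeobox genes with a Chd1 KO summit stayed between 7 and 10 and the number with a control summit at 0. The lowest count, 7 of 57, came from the window of 1 kb upstream to 100 bp downstream, which leaves out Lhx6, Nkx2-4 and Pitx3. The same window moved the count of all genes to 2109 (9.85%). With the outermost TSS only, Lhx8 and Pbx2 dropped out, and 6 of 8 summits were downstream in place of 10 of 12. Restriction to genes with 1 TSS left 28 homeobox genes, 3 of them with a summit, and 1285 of 11411 genes in all (11.3%). The counts fell in part because fewer genes entered, and the cause of the lower shares was not tested, nor was that of the other shifts. Within 500 bp of the TSS, the median promoter GC content was 60.4% in place of 57.7%. In the class of 60% to 65% GC the count was 2 of 10 (20.0%, Nkx1-1 and Nkx2-4) and, with GC content within 500 bp, 2 of 19 (10.5%, Nkx2-4 and Pitx3). At 65% and over within 500 bp, it was 5 of 12. Median gene length stayed between 4.92 and 6.14 kb, and genes with a stretch of G and C at 41 or more. Leaving out summits with a nearer TSS of another gene kept the same 10 genes, and 3194 of all genes. That alternative, the class of 65% and over within 500 bp and GC content at the TSS with the summit were chosen after seeing the data.

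No paired analysis was possible because the deposited peak lists used here hold merged replicates, and for the same reason no replicate could be left out. Raw reads were not analyzed. The lists hold only peaks past a cutoff, 13 reads at the least in Chd1 KO and 17 in control, so promoters with fewer reads count as without a summit in both genotypes. With 57 genes, and 16 of at least 60% GC, the intervals of shares are wide.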

Other observations

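Otx1, which acts in the brain and in sense organs, was the only homeobox gene without a summit in the window that had one within 10 kb. A pair of Chd1 KO summits lay 8056 bp and 8395 bp downstream of its nearest protein-coding TSS, past the annotated end of the gene. They had 19 and 20 extended reads, fold enrichments of 4.65 and 4.95, and a GC content of the peak of 78.8% and 76.1%. The longest stretch of G and C in the nearer of these peaks is shown with the stretch in capitals, on the strand of Otx1 from mm9, to be read beside those under the promoter peaks.
Otx1 (chr11:21893542-21893600, minus strand): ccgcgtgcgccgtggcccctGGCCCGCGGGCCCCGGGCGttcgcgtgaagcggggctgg

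For the other genes without a summit in the window, the nearest Chd1 KO summit was farther. Over the 47 genes the median distance was 115 kb and the longest 766 kb, at Meis1, and 17 of the 47 had a summit within 100 kb. After Otx1, the nearest were those of Nkx2-6, a gene of pharynx and heart, at 12.9 kb, and of Six5, at 18.0 kb.

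Both genes with 2 summits, Lhx2 and Nkx1-1, had them near separate annotated TSSs of the same gene. The second summit of Nkx1-1 lay in a coding exon toward the 3′ end of the gene. In the list of other homeobox genes, the nearest summit lay at -966 bp for Lbx1, -650 bp for Lmx1a, 689 bp for Gbx1 and 702 bp for Vsx1. These are the farthest within the window on that list, and each is farther from the TSS than any of the 12 summits described above. Other genes of that list had summits as near as those 12, such as Barhl2 at 28 bp, Tgif2 at 51 bp, Phox2a at 116 bp and Barx1 at 151 bp.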
